A study of Xenopus tropicalis with 15 samples.

Results

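The genes described here are 58 symbols that carry cells through mitosis, from the kinase Cdk1 and its cyclins to the kinetochore, the spindle, condensin and the proteins that cut a cell apart. They were taken by symbol alone, with letter case ignored, which gave 62 gene models of the 34192 in the deposited files, since kif22, anln, ncaph and nek2 have 2 models each. The rule itself uses no measured value.

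The tissue was tail of wild-type Xenopus tropicalis tadpoles, a frog that regrows its tail after amputation, cut at NF stage 41 (3 days post fertilization, dpf) and kept at 23 °C. Untreated samples at 0 hours post amputation (hpa) were about 250 µm of tissue just anterior to the cut. Those at 24 hpa were about 250 µm of regenerating tissue from animals held in 0.1% DMSO or in 1 of 3 compounds, namely 2-methoxyestradiol (2ME) at 5 µM, echinomycin at 0.5 µM and IWR-1 at 10 µM. The series sets the first 2 compounds as antagonists of Hif1a, the hypoxia factor, and IWR-1 as one of Wnt signaling, with 3 RNA-seq libraries in each of the 5 groups. 2-Methoxyestradiol also binds tubulin, and echinomycin binds DNA. The DMSO content of the compound baths was not given in the labels.

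A cell enters mitosis when Cdk1 joined to cyclin B is switched on by Cdc25 phosphatases, and it leaves when the anaphase-promoting complex has cyclin B and securin destroyed. Between these steps condensin and topoisomerase II fold the chromosomes, each centromere builds a kinetochore, and microtubules attached to the kinetochores pull the sister chromatids apart. Most of these genes are transcribed in G2 and mitosis under B-Myb with MuvB and under FoxM1, so their summed RNA is widely read as a gauge of how much of a tissue is dividing. The roles given for the single genes are known from vertebrate cells, largely human cells and frog egg extract.

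Sequencing gave 17297773 to 23377789 estimated counts per library. Of the 62 models, 59 passed the filter on low counts and entered the test, and they stand for 56 of the 58 symbols. The 3 left out were ccnb1 with 0 to 8 counts per library, birc5 with 0 to 3 and the ncaph model gene29482 with 0 to 13. Models under the neighbouring names ccnb1.2 and birc5l, found after the values were seen, held more reads. They are given beside ccnb1 and birc5 by name alone, since no sequence was compared. Values are CPM (counts scaled to the same total) adjusted by TMM factors, which serve to compare libraries for 1 gene. Differences are log2 ratios with their standard error from edgeR's quasi-likelihood test on all 15 libraries. A model was called when its Benjamini-Hochberg adjusted p over all 18823 tested models was under 0.05. What a replicate was (animal, pool or clutch) is not in the labels, so p-values measure the spread between these samples only. RNA was taken from whole pieces of tissue, so fewer dividing cells and less of a transcript per cell cannot be told apart.

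The makeup of the tissue moved between the groups as well. The summed level of 10 striated muscle markers was 21503 to 24083 CPM at 0 hpa, 1694 to 2241 with DMSO, 2302 to 3745 with 2ME, 5287 to 6416 with echinomycin and 4586 to 5238 with IWR-1. All 10 were called lower with DMSO than at 0 hpa and all 10 higher with each compound than with DMSO. Of 9 tested leukocyte markers, 8 were higher with DMSO than at 0 hpa, 7 lower with 2ME and 8 higher with echinomycin, and their sum was 90.98 to 103, 272 to 293, 156 to 168, 374 to 441 and 289 to 313 CPM in the order of the groups above.

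The other marker sums are given in that same order. Erythroid markers summed to 1681 to 7011, 53.3 to 71.4, 55.1 to 80.2, 102 to 209.5 and 124 to 210.4 CPM, and all 8 were called lower with DMSO than at 0 hpa. Spinal cord progenitor markers summed to 121 to 133, 43.9 to 56.4, 33.2 to 36.6, 44.5 to 60.9 and 43.1 to 48.8 CPM, and notochord markers to 4035 to 4244, 2703 to 2924, 2216 to 2494, 5122 to 6228 and 2376 to 2441 CPM. The notochord sum was mostly col2a1 and krt8.1, and krt8.1 was counted among the epidermal markers too. From 0 hpa to DMSO the mean of col2a1 went from 3797 to 1551 CPM, and foxa2 and nog were lower as well. The mean of krt8.1 went from 328 to 1218 CPM, and tbxt, shh and not were higher as well. Epidermal markers, at 3418 to 3697 CPM at 0 hpa, were at 6363 to 6508 with DMSO and 5679 to 5848, 6549 to 7051 and 5409.8 to 5474 with the 3 compounds. Against that sum the mean of itln1 went from 994 CPM at 0 hpa to 755 with DMSO, and krt61 was lower too. In the same order itln1 was at 434, 548 and 318 CPM with the compounds. With echinomycin the means of krt18.1 and krt8.1 were above those with DMSO, and the other listed epidermal markers, such as tp63 (226 to 157 CPM), were below. Neuron markers summed to 203 to 236, 127 to 165, 116 to 122.8, 81.1 to 101 and 118 to 129 CPM and endothelial markers to 169.8 to 174, 47.4 to 56.3, 44.6 to 58.4, 80.2 to 96.1 and 57.5 to 70.7 CPM. Not all neuron and progenitor markers moved alike. From 0 hpa to DMSO the neuron means of stmn2 and tubb3 went up, from 49.3 to 61.2 and from 31.6 to 37.9 CPM, and the others down. Of the progenitor means sox3 went up, from 12.3 to 15.3 CPM, and the others down, fabp7 most, from 43.9 to 5.05 CPM. No marker had a group mean of 0, and lyz and krt61 were listed at 0 in at least 1 library. The part of these shifts in the results on mitosis genes was not tested.

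Summed over the 62 models, mitosis and kinetochore RNA was highest before regeneration and lowest with echinomycin. The sum was 4574, 4243 and 4280.3 CPM at 0 hpa and 3004, 3158 and 3123 CPM with DMSO. It was 3098, 3079 and 3072 CPM with 2ME, 1542, 2185 and 1940.0 CPM with echinomycin and 2789, 2626 and 2548 CPM with IWR-1. The ranges of 0 hpa, DMSO, echinomycin and IWR-1 did not overlap, while all 3 libraries with 2ME lay within the DMSO range. The place of 2ME, and the width of the gap between IWR-1 and DMSO, depended on the TMM factors. As a share of all estimated counts, without these factors, the 62 models held 0.317% to 0.324% with 2ME and 0.288% to 0.298% with DMSO. With IWR-1 that share was 0.273% to 0.287%, so its highest library lay only just below the lowest with DMSO. Of the 59 tested models, 55 had their highest group mean at 0 hpa and 56 their lowest with echinomycin, and the matching shares of all tested models were not counted. In 47 of 59 every echinomycin library lay below all 12 others, against 7.17% of all tested models.

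**Figure D1:**
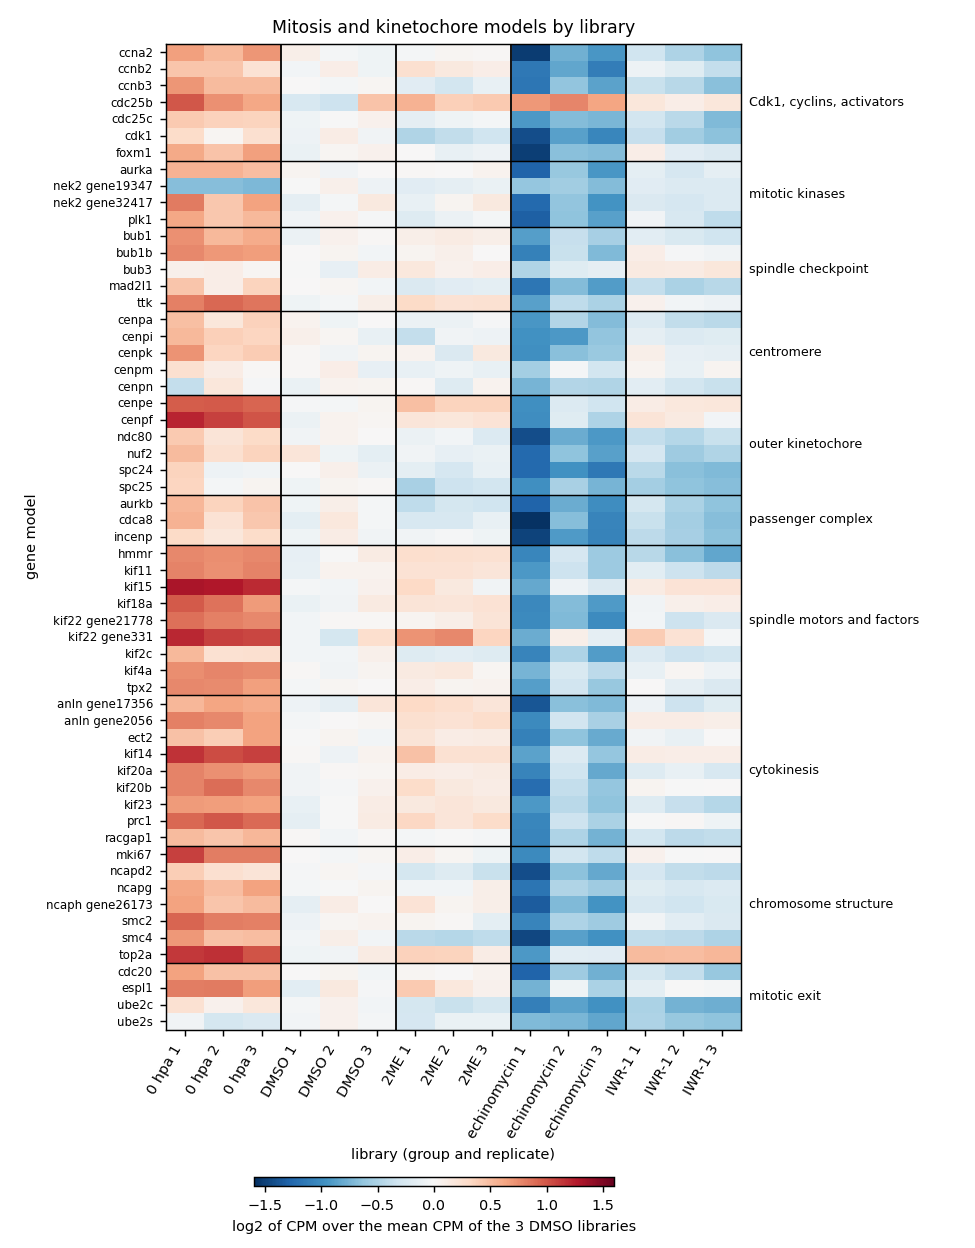
Each row is 1 tested model, ordered by role, and each column 1 of the 15 libraries, and colour gives log2 of the CPM over the mean of the 3 DMSO libraries (red higher, blue lower). The 0 hpa columns are red for most rows and the echinomycin columns blue, palest in the second echinomycin library, which held 2185 CPM in all against 1542 in the first.

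The 3 echinomycin libraries were not alike. The first was the lowest of its group in 56 of the 59 models and the second the highest in 55, against 38.2% and 31.2% of all tested models. Within the IWR-1 group the first library was the highest in 43 models, and at 0 hpa the first library was the highest in 41. For neither of these was the share of all tested models counted. The calls against 0 hpa or DMSO that were lost under at least 1 alternative are named with each comparison. There were 25 alternatives without a fold minimum, namely other scalings, filters, tools and fits and leaving out each library.

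Per length, the spread among the genes was wide. At 24 hpa with DMSO the nek2 model gene19347 stood first at 157 ± 2.12 TPM (counts per length, scaled to the same total, mean ± SD, n = 3), followed by cdk1 at 125 ± 4.21, ube2c at 70.8 ± 1.24, incenp at 57.9 ± 1.51 and ube2s at 57.5 ± 1.31 TPM. At 0 hpa cdk1 was at 151 ± 6.27 TPM and gene19347 at 102 ± 8.18 TPM, and with echinomycin they were at 69.1 ± 15.4 and 119.5 ± 7.55 TPM. The least abundant tested genes with DMSO were espl1 at 2.19 ± 0.172, kif18a at 2.30 ± 0.307, kif14 at 3.06 ± 0.309 and cenpn at 3.25 ± 0.22 TPM.

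Regenerating tissue held less mitosis RNA at 24 hpa with DMSO than the tail stump tissue at 0 hpa. Of 59 tested models 50 fell, against 30.8% of all tested models, and 2 rose, against 32.2%. The median log2 ratio of the members was -0.57 (1.49-fold lower), while that of all tested models was 0.0013. At least 2-fold falls were found for 5 of the 59 members, kif15, the kif22 model gene331, top2a, cenpf and kif14. That was a smaller share than the 14.5% of all tested models with such falls. The nek2 model gene19347 and ube2s rose, and cdk1, ube2c, spc24, spc25, bub3, cenpm and cenpn were not called. In 50 models every DMSO library lay below every 0 hpa library and in 2 above, against 32.6% and 34.2% of all models. Time, position along the tail and DMSO differ together between these groups and cannot be told apart. The call of ube2s was lost without the second 0 hpa library, the third 0 hpa library or any 1 of the DMSO libraries, and with RLE or upper-quartile scaling, DESeq2, only the groups compared or the length offset, which leaves 1 model higher. Of the 50 falls 43 kept their call under all 25 alternatives. The other 7, incenp, ndc80, kif2c, mad2l1, nuf2, cdca8 and ncapd2, were not called without the first 0 hpa library, and ncapd2 was lost under 15 alternatives in all (adjusted p up to 0.120).

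With echinomycin nearly every mitosis gene was lower than with DMSO. Against DMSO, 56 of 59 models fell, against 27.0% of all tested models, and 1 rose, against 24.6%. The median log2 ratio was -0.73 (1.66-fold lower), and that of all tested models was 0.01. The falls ran from -0.27 for bub3, a checkpoint protein, to -1.13 for incenp, the scaffold of the chromosomal passenger complex. Falls of at least 2-fold were found for 9 members, incenp, spc24, cdk1, smc4, cdca8, ccna2, ndc80, ccnb2 and aurkb, against 3.17% of all models. The model that rose was cdc25b, one of the phosphatases that switch Cdk1 on, and cenpm and the kif22 model gene331 were not called. Every echinomycin library lay below every DMSO library in 55 models and above in 1, against 29.8% and 27.4% of all models. The median was -0.61 without the first echinomycin library, with 52 models lower, and -0.86 without the second, with 57 lower. Of the 56 falls 52 kept their call under all 25 alternatives, and bub3, top2a, kif15 and espl1 lost it under 6, 7, 13 and 8, in each case also without the first echinomycin library. Muscle and leukocyte marker sums were higher with echinomycin than with DMSO, as given above, and their part in the falls was not tested.

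IWR-1 lowered fewer of these genes and by less. Of 59 models 24 fell against DMSO, against 22.4% of all tested models, and 1 rose, against 19.9%. The median log2 ratio was -0.21 (1.16-fold lower), and that of all tested models was -0.02. The genes that fell most were ube2c, hmmr, spc25, spc24 and ube2s, at -0.68, -0.64, -0.62, -0.59 and -0.58, and the gene that rose was top2a at 0.51. In 34 models the IWR-1 libraries all lay below the DMSO libraries and in 6 above, against 27.5% and 24.7% of all models. With scaling by library size alone the median of all tested models moved to 0.14 and that of the members to -0.05, and 12 members were lower and 2 higher. Without the third DMSO or the first echinomycin library 3 members were higher. Of the 24 falls 12 kept their call under all 25 alternatives, as did the rise of top2a. The other 12, racgap1, ccna2, ndc80, kif11, kif2c, kif23, nuf2, cdca8, cenpa, cdc20, ncapd2 and the nek2 model gene19347, were lost both with scaling by library size alone and with limma on the deposited CPM. Among these kif11, kif2c, nuf2, cdca8, cenpa, cdc20 and ncapd2 also depended on single libraries, and without the third IWR-1 library 18 falls were left. The call of kif2c was the weakest, lost under 19 alternatives (adjusted p up to 0.39). These include RLE and upper-quartile scaling, DESeq2, the replicate block and the length offset.

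With 2ME the group as a whole stayed near the DMSO level. Only 5 models fell and 5 rose, against 16.5% and 14.0% of all tested models, and the median log2 ratio was 0.03 beside -0.02 for all. The genes that fell were smc4 at -0.43, cdk1 at -0.39, spc25 at -0.38, aurkb at -0.34 and ube2c at -0.30. Those that rose were the kif22 model gene331 at 0.62, cdc25b at 0.45, cenpe at 0.40, kif14 at 0.32 and ttk at 0.25. In 12 models all 2ME libraries lay below all DMSO libraries and in 18 above, against 24.9% and 20.4% of all models. With scaling by library size alone the median of all tested models moved to 0.12, and 1 member was lower and 16 higher. These counts rest on single libraries as well. The number higher was 1 without the first DMSO library, 0 without the second, 0 without the first 2ME library and 2 without each of the other 2ME libraries, 12 and 8 without the first and second echinomycin library, and 3 without the second IWR-1 library. The number lower was 2 without the second DMSO or the first 2ME library. The fall of smc4 was the 1 call of the 10 that held under all 25 alternatives. The other 4 falls were lost with scaling by library size alone and with limma on the deposited CPM, and the 5 rises each without 1 or more single libraries.

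**Figure D2:**
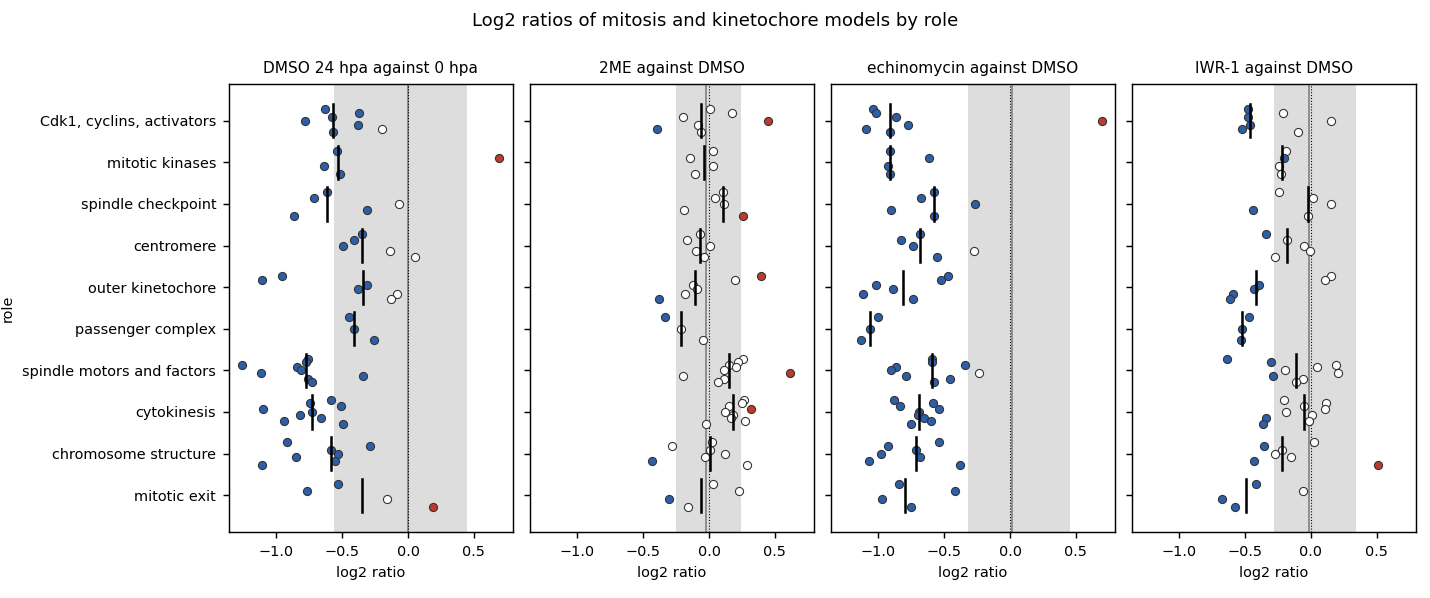
Each point is the log2 ratio of 1 tested model in 1 of 4 comparisons, arranged by role, with filled blue points called lower, filled red points called higher and open points not called, a black bar at the role's median and a grey band over the middle 50% of all tested models. Nearly all points lie left of the band with echinomycin (56 of 59 called lower), most lie within it with 2ME, and the spindle and cytokinesis genes lie farther left in DMSO against 0 hpa than in IWR-1 against DMSO.

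The compounds were also compared with each other. All 3 comparisons with DMSO share the same 3 DMSO libraries, while those between compounds do not use them for the difference itself. With 2ME 57 of 59 models were higher than with echinomycin, against 22.8% of all tested models, and 0 were lower, against 21.3%. The smallest adjusted p were those of ccnb2, ect2, incenp, kif18a and the ncaph model gene26173, with log2 ratios of 1.19, 0.99, 1.09, 1.08 and 1.097. With 2ME 17 models were higher than with IWR-1, against 11.1%, and 0 were lower, against 11.4%. The smallest adjusted p in that comparison were those of hmmr at 0.90, ube2s at 0.42, kif23 at 0.51, kif11 at 0.53 and ube2c at 0.37. For both counts of 0 from edgeR, 0 members were lower at an unadjusted p under 0.05, and DESeq2 and limma also gave 0. Leaving out the first echinomycin library, or the second or the third with IWR-1, turned the 17 into 29, 11 and 10. Under all 25 alternatives 56 of the 57 and 7 of the 17 kept their call.

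Echinomycin and IWR-1 were compared directly as well. With echinomycin 51 of 59 models were lower than with IWR-1, against 18.6% of all tested models, and 1, cdc25b, was higher, against 16.2%. The smallest adjusted p were those of ect2 at -0.78, kif18a at -0.91, the nek2 model gene19347 at -0.41, ccnb2 at -0.80 and top2a at -0.89. Not called were hmmr, spc25, ube2s, cenpm, cenpn, espl1 and the kif22 model gene331, whose log2 ratios lay between -0.44 and 0.04. Of the 51 lower models 41 kept their call under all 25 alternatives, and the other 10 were not called without the first echinomycin library.

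Cdk1, its cyclins and activators make up the switch for entry into mitosis. Of 7 tested models 6 fell from 0 hpa to DMSO, 6 fell with echinomycin and 4 with IWR-1, while with 2ME 1 fell and 1 rose. The counts by role, here and below, stand beside the shares of all tested models. From 0 hpa to DMSO these were 30.8% lower and 32.2% higher, and with 2ME 16.5% and 14.0%. With echinomycin they were 27.0% and 24.6%, and with IWR-1 22.4% and 19.9%. The 2ME counts of this role were near those shares. The catalytic subunit cdk1 was at 149.8, 125 and 146 CPM at 0 hpa, 116, 133 and 118 with DMSO, 87.9, 93.3 and 97.8 with 2ME, 45.5, 66.7 and 59.5 with echinomycin and 94.4, 82.8 and 77.2 with IWR-1. All libraries of each compound lay below all DMSO libraries, whereas the DMSO and 0 hpa libraries overlapped. For cdk1 the log2 ratio was -0.20 ± 0.11 (SE), adjusted p = 0.129, for DMSO against 0 hpa, -0.39 ± 0.11 (SE), adjusted p = 0.0135, with 2ME, -1.09 ± 0.11 (SE), adjusted p = 9.2e-07, with echinomycin and -0.53 ± 0.11 (SE), adjusted p = 0.0012, with IWR-1. The call with 2ME was lost without the second DMSO library (adjusted p = 0.0837) or the first 2ME library, with scaling by library size alone and with limma on the deposited CPM, and over all alternatives the adjusted p ranged from 0.00179 to 0.0837.

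Cyclin A2 is the cyclin of S phase and early mitosis, and its RNA fell in 3 of the 4 comparisons. Its gene ccna2 was at 91.5, 82.998 and 94.8 CPM at 0 hpa, 61.7, 56.7 and 55.5 with DMSO, 56.7, 59.1 and 58.6 with 2ME, 20.2, 33.97 and 30.5 with echinomycin and 46.5, 41.2 and 37.1 with IWR-1. The 2ME libraries lay among the DMSO libraries and those of the other compounds below them. The log2 ratios were -0.63 ± 0.13 (SE), adjusted p = 0.000335, for DMSO against 0 hpa, -1.04 ± 0.13 (SE), adjusted p = 6.71e-06, with echinomycin and -0.48 ± 0.13 (SE), adjusted p = 0.00647, with IWR-1, and 0.0048 (not called) with 2ME. Among the B-type cyclins, ccnb2 had log2 ratios of -0.38, 0.17 (not called), -1.02 and -0.21 (not called) in the order 0 hpa to DMSO, 2ME, echinomycin and IWR-1. In that order ccnb3 had -0.58, -0.20 (not called), -0.86 and -0.48.

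The model named ccnb1 held 24 counts in all 15 libraries, too few to test. The model ccnb1.2 was at 107, 95.5 and 104 CPM at 0 hpa, 75.7, 84.1 and 73.1 with DMSO, 73.2, 80.3 and 78.5 with 2ME, 34.4, 47.01 and 39.2 with echinomycin and 65.3, 62.2 and 59.2 with IWR-1. Its echinomycin libraries were the lowest and its 2ME libraries lay among those with DMSO. In log2 terms ccnb1.2 was at -0.39 ± 0.09 (SE), adjusted p = 0.00101, for DMSO against 0 hpa, -0.95 ± 0.09 (SE), adjusted p = 4.21e-07, with echinomycin and -0.32 ± 0.09 (SE), adjusted p = 0.00855, with IWR-1, and it was -0.01 (not called) with 2ME.

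The exception of the entry genes was cdc25b. It was at 59.3, 49.4 and 45.4 CPM at 0 hpa, 24.9, 23.5 and 40.6 with DMSO, 43.6, 38.6 and 39.7 with 2ME, 47.95, 50.9 and 46.1 with echinomycin and 33.6, 31.96 and 33.8 with IWR-1. The third DMSO library stood apart from the other DMSO libraries, and all echinomycin libraries lay above it. For cdc25b the log2 ratio was -0.78 ± 0.15 (SE), adjusted p = 0.000217, for DMSO against 0 hpa and 0.70 ± 0.15 (SE), adjusted p = 0.000883, with echinomycin. With 2ME it was 0.45 ± 0.15 (SE), adjusted p = 0.0316, though the libraries overlapped. That call was lost without the first or second DMSO library or the first or the third 2ME library, and with only the groups compared (adjusted p 6.63e-05 to 0.151 over all alternatives). Its relative cdc25c fell with DMSO, echinomycin and IWR-1, by log2 ratios of -0.38, -0.78 and -0.47, and was at -0.08 (not called) with 2ME.

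FoxM1 is the transcription factor that drives many genes of G2 and mitosis. Its gene foxm1 was at 31.6, 28.3 and 32.7 CPM at 0 hpa, 19.3, 21.2 and 21.7 with DMSO, 20.8, 19.1 and 19.6 with 2ME, 7.31, 13.004 and 12.8 with echinomycin and 22.3, 18.2 and 17.7 with IWR-1. The 0 hpa libraries were the highest, the echinomycin libraries the lowest, and those with 2ME and IWR-1 overlapped the DMSO libraries. The log2 ratio was -0.57 ± 0.15 (SE), adjusted p = 0.00298, for DMSO against 0 hpa and -0.91 ± 0.16 (SE), adjusted p = 0.000135, with echinomycin, and neither of the other compounds gave a call, with -0.06 and -0.10.

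**Figure D3:**
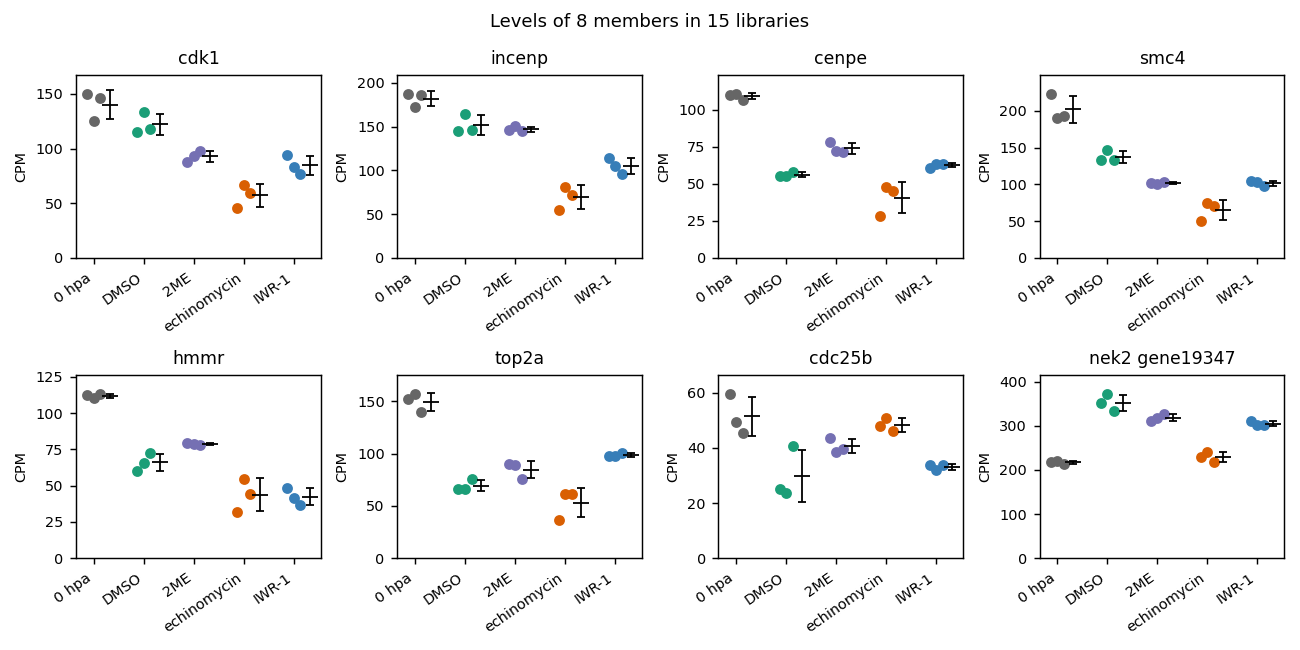
Each panel shows the CPM (TMM-scaled, axis from 0) of 1 member in the 3 libraries of each of the 5 groups as points, with a bar at the group mean and error bars of 1 SD. The echinomycin points are the lowest for cdk1, incenp, cenpe, smc4 and top2a, hmmr is as low with IWR-1 (36.9 to 48.6 CPM), top2a is higher with IWR-1 than with DMSO, cdc25b is higher with echinomycin, and the nek2 model gene19347 is higher with DMSO than at 0 hpa.

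Kinases of the centrosome and spindle had 4 tested models. Of these, 3 fell and the nek2 model gene19347 rose from 0 hpa to DMSO, with echinomycin all 4 fell, and with IWR-1 gene19347 was the 1 that fell. The count of 1 of 4 with IWR-1 was near the 22.4% of all tested models. Polo-like kinase 1, needed for centrosome maturation and for activating Cdk1, was measured by plk1 at 162, 142 and 151 CPM at 0 hpa, 102, 111 and 104 with DMSO, 91.7, 99.7 and 103 with 2ME, 42.96, 68.02 and 58.1 with echinomycin and 102, 88.96 and 80.2 with IWR-1. Only with echinomycin did all libraries lie below all DMSO libraries, while 2ME and IWR-1 overlapped DMSO. For plk1 the log2 ratio was -0.52 ± 0.12 (SE), adjusted p = 0.00112, for DMSO against 0 hpa, -0.91 ± 0.12 (SE), adjusted p = 1.2e-05, with echinomycin, -0.11 ± 0.12 (SE), adjusted p = 0.527, with 2ME and -0.23 ± 0.12 (SE), adjusted p = 0.138, with IWR-1. RNA for Aurora A, which builds spindle poles, followed the same course. The log2 ratios of aurka were -0.54, 0.03 (not called), -0.91 and -0.19 (not called) for DMSO against 0 hpa, 2ME, echinomycin and IWR-1.

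Nek2 separates the centrosomes at mitotic entry, and its models went opposite ways from 0 hpa to DMSO. Model gene19347 was at 219, 219 and 214 CPM at 0 hpa, 351, 371 and 333 with DMSO, 311, 317 and 327 with 2ME, 229.5, 239.9 and 218 with echinomycin and 311, 301 and 301 with IWR-1. Every DMSO library was above every 0 hpa library, and the echinomycin libraries were near the level of 0 hpa. In log2 terms that model was at 0.69 ± 0.05 (SE), adjusted p = 8.33e-09, for DMSO against 0 hpa, -0.62 ± 0.05 (SE), adjusted p = 1.5e-07, with echinomycin and -0.21 ± 0.05 (SE), adjusted p = 0.00492, with IWR-1, and the last was lost with scaling by library size alone (adjusted p 0.463) and with limma on the deposited CPM. Model gene32417 was at 21.9, 16.7 and 19.2 CPM at 0 hpa, 11.1, 12.1 and 13.7 with DMSO and 5.18, 7.92 and 6.36 with echinomycin, without overlap. Its log2 ratios were -0.64 for DMSO against 0 hpa and -0.92 with echinomycin. Both models carry the symbol nek2, and how reads were shared between them is not known.

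The spindle assembly checkpoint holds anaphase until every kinetochore is attached. From 0 hpa to DMSO 4 of its 5 genes fell, with echinomycin all 5 fell, with IWR-1 1 fell and with 2ME 1 rose. The count with IWR-1 was near the 22.4% of all tested models called lower, and that with 2ME stood beside 14.0% called higher. The kinase Mps1, encoded by ttk, starts the signal, and ttk was at 54.3, 58.5 and 55.9 CPM at 0 hpa, 29.6, 30.2 and 32.98 with DMSO, 38.1, 36.2 and 36.4 with 2ME, 16.97, 23.4 and 21.8 with echinomycin and 32.3, 30.1 and 29.1 with IWR-1. Its 2ME libraries lay above and its echinomycin libraries below all DMSO libraries, and IWR-1 overlapped DMSO. For ttk the log2 ratio was -0.86 ± 0.09 (SE), adjusted p = 2.99e-07, for DMSO against 0 hpa, 0.25 ± 0.09 (SE), adjusted p = 0.042, with 2ME and -0.58 ± 0.09 (SE), adjusted p = 8e-05, with echinomycin. The rise with 2ME was lost without any 1 of the 2ME libraries, the first or second DMSO library or the second IWR-1 library. It was also lost with the replicate block, and its adjusted p over all alternatives ranged from 0.00496 to 0.127.

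Mad2 is the protein that blocks the anaphase activator, and its RNA also fell with IWR-1. Its gene mad2l1 was at 40.4, 31.98 and 38.04 CPM at 0 hpa, 29.8, 30.5 and 28.8 with DMSO, 25.3, 26.2 and 26.7 with 2ME, 13.3, 18.4 and 15.9 with echinomycin and 22.8, 20.9 and 21.8 with IWR-1. All libraries of the 3 compounds lay below those with DMSO. The log2 ratio was -0.31 ± 0.10 (SE), adjusted p = 0.0129, for DMSO against 0 hpa, -0.90 ± 0.10 (SE), adjusted p = 2.56e-06, with echinomycin and -0.44 ± 0.10 (SE), adjusted p = 0.00215, with IWR-1, and -0.19 (not called) with 2ME. The checkpoint genes bub1 and bub1b fell from 0 hpa to DMSO by log2 ratios of -0.62 and -0.71 and with echinomycin by -0.58 and -0.68. For bub3, their partner, the ratios were -0.07 (not called) and -0.27.

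The centromere genes had a median log2 ratio from 0 hpa to DMSO of -0.35. Of 5 tested, 3 fell from 0 hpa to DMSO, 4 fell with echinomycin and 1 fell with IWR-1, the last near the 22.4% of all tested models. CENP-A is the histone that marks the centromere, and cenpa was at 44.5, 36.01 and 41.02 CPM at 0 hpa, 33.2, 30.3 and 32.1 with DMSO, 29.9, 29.8 and 31.5 with 2ME, 16.7, 23.1 and 19.6 with echinomycin and 27.4, 24.3 and 23.7 with IWR-1. The groups 0 hpa, DMSO and echinomycin did not overlap, and IWR-1 lay between the last 2. For cenpa the log2 ratio was -0.35 ± 0.10 (SE), adjusted p = 0.0068, for DMSO against 0 hpa, -0.68 ± 0.10 (SE), adjusted p = 4.14e-05, with echinomycin and -0.34 ± 0.10 (SE), adjusted p = 0.0127, with IWR-1, the last lost with scaling by library size alone, with limma on the deposited CPM and without the first DMSO or the third IWR-1 library (adjusted p up to 0.152).

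Among the proteins of the inner kinetochore, cenpi was at 17.6, 15.96 and 15.6 CPM at 0 hpa, 12.98, 12.6 and 11.3 with DMSO, 9.41, 11.8 and 11.6 with 2ME, 6.29, 6.52 and 7.94 with echinomycin and 11.1, 10.5 and 10.8 with IWR-1. The echinomycin libraries again were the lowest. In log2 terms cenpi was at -0.41 ± 0.11 (SE), adjusted p = 0.00367, for DMSO against 0 hpa and -0.83 ± 0.12 (SE), adjusted p = 1.86e-05, with echinomycin. For cenpk the ratios were -0.50 and -0.73, and for cenpn 0.05 (not called) and -0.56. The gene cenpm was not called in any of the 4 comparisons, with log2 ratios of -0.14, -0.10, -0.28 and -0.01 for DMSO against 0 hpa, 2ME, echinomycin and IWR-1.

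The outer kinetochore was measured by the 4 subunits of the Ndc80 complex, which grips the microtubule, and by the large proteins CENP-E and CENP-F. All 6 genes fell with echinomycin, 4 fell with IWR-1, and 4 fell from 0 hpa to DMSO. The kinesin gene cenpe, which carries chromosomes to the spindle equator, was at 110.0, 110.4 and 107 CPM at 0 hpa, 55.3, 54.9 and 57.9 with DMSO, 78.1, 71.9 and 71.7 with 2ME, 28.5, 48.01 and 45.1 with echinomycin and 60.8, 63.1 and 63.5 with IWR-1. Both 2ME and IWR-1 libraries lay above the DMSO libraries and the echinomycin libraries below. For cenpe the log2 ratio was -0.96 ± 0.12 (SE), adjusted p = 2.6e-06, for DMSO against 0 hpa, 0.40 ± 0.12 (SE), adjusted p = 0.0191, with 2ME, -0.47 ± 0.12 (SE), adjusted p = 0.00441, with echinomycin and 0.16 ± 0.12 (SE), adjusted p = 0.32, with IWR-1. The rise with 2ME was lost without the second DMSO or first 2ME library (adjusted p up to 0.0737). For cenpf the log2 ratios were -1.11, 0.20 (not called), -0.52 and 0.11 (not called) in the same order.

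The Ndc80 subunit genes fell with both echinomycin and IWR-1. The subunit gene spc24 was at 34.7, 25.7 and 26.1 CPM at 0 hpa, 27.3, 28.7 and 25.4 with DMSO, 24.3, 22.6 and 24.9 with 2ME, 11.4, 13.8 and 12.3 with echinomycin and 20.2, 17.1 and 16.7 with IWR-1. The DMSO libraries overlapped the 0 hpa libraries, and the IWR-1 and echinomycin libraries lay below both groups. The log2 ratio was -0.08 ± 0.11 (SE), adjusted p = 0.527, for DMSO against 0 hpa, -1.12 ± 0.12 (SE), adjusted p = 9.6e-07, with echinomycin and -0.59 ± 0.11 (SE), adjusted p = 0.000511, with IWR-1. With IWR-1 spc25, ndc80 and nuf2 had log2 ratios of -0.62, -0.40 and -0.43, and with echinomycin -0.73, -1.02 and -0.89. From 0 hpa to DMSO they were -0.13 (not called), -0.31 and -0.38. The IWR-1 calls of ndc80 and nuf2 were lost under 2 and 4 alternatives (adjusted p up to 0.105 and 0.101), and their calls from 0 hpa to DMSO under 2 each (up to 0.0626 and 0.0563).

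The chromosomal passenger complex, which corrects wrong attachments and guides cytokinesis, had the lowest median of the 10 roles with echinomycin, at -1.06, and with IWR-1, at -0.52. All 3 tested genes fell with each of these compounds and from 0 hpa to DMSO. The scaffold gene incenp was at 187, 173 and 187 CPM at 0 hpa, 145, 165 and 146 with DMSO, 146, 150.5 and 145 with 2ME, 54.4, 81.3 and 72.4 with echinomycin and 114, 105.3 and 96.1 with IWR-1. Echinomycin and IWR-1 libraries lay below all others, and 2ME overlapped DMSO. For incenp the log2 ratio was -0.26 ± 0.10 (SE), adjusted p = 0.0366, for DMSO against 0 hpa, a call lost without the first or the third library of either group, -1.13 ± 0.11 (SE), adjusted p = 3.23e-07, with echinomycin, -0.53 ± 0.10 (SE), adjusted p = 0.000627, with IWR-1 and -0.05 ± 0.10 (SE), adjusted p = 0.777, with 2ME.

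Its kinase Aurora B, encoded by aurkb, was at 111, 98.5 and 106 CPM at 0 hpa, 73.4, 82.2 and 75.6 with DMSO, 58.1, 63.2 and 61.7 with 2ME, 31.8, 44.6 and 38.8 with echinomycin and 63.4, 54.3 and 49.1 with IWR-1. All 3 compounds lay below DMSO, and echinomycin below the others. In log2 terms aurkb was at -0.45 ± 0.10 (SE), adjusted p = 0.00103, for DMSO against 0 hpa, -0.34 ± 0.10 (SE), adjusted p = 0.0198, with 2ME, -1.004 ± 0.10 (SE), adjusted p = 9.58e-07, with echinomycin and -0.47 ± 0.10 (SE), adjusted p = 0.00152, with IWR-1. The call with 2ME was lost with scaling by library size alone, with limma on the deposited CPM and without the second DMSO or first 2ME library (adjusted p up to 0.129). Borealin, encoded by cdca8, had log2 ratios of -0.41, -0.21 (not called), -1.06 and -0.52 for DMSO against 0 hpa, 2ME, echinomycin and IWR-1, and its adjusted p over the alternatives reached 0.0836 in the first of these and 0.0679 in the last. The model named birc5, for survivin, held 3 counts in all libraries, while birc5l was at 45.6, 43.1 and 48.02 CPM at 0 hpa, 37.6, 41.9 and 36.7 with DMSO, 33.3, 34.4 and 36.4 with 2ME, 13.5, 19.9 and 15.8 with echinomycin and 26.5, 22.9 and 22.7 with IWR-1. Its echinomycin libraries were the lowest, and its log2 ratio was -1.24 ± 0.11 (SE), adjusted p = 1.95e-07, with echinomycin and -0.69 ± 0.11 (SE), adjusted p = 8.37e-05, with IWR-1. For DMSO against 0 hpa birc5l was at -0.23 ± 0.10 (SE), adjusted p = 0.0624, and with 2ME at -0.16 ± 0.10 (SE), adjusted p = 0.273, neither called.

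The spindle motors and assembly factors fell most from 0 hpa to DMSO, with a median of -0.78 and all 9 tested models called. With echinomycin 8 fell, with IWR-1 3 fell and with 2ME 1 rose. The last 2 counts stood beside 22.4% and 14.0% of all tested models, and that with 2ME was not above its share. The IWR-1 count includes kif2c, whose call was lost under 19 of the 25 alternatives. Kif15 is a kinesin that helps keep the spindle poles apart, and kif15 was at 71.3, 70.1 and 65.7 CPM at 0 hpa, 28.2, 27.9 and 30.1 with DMSO, 35.8, 32.01 and 27.7 with 2ME, 16.3, 27.2 and 24.4 with echinomycin and 31.4, 33.5 and 33.4 with IWR-1. The 0 hpa libraries were more than 65 CPM and no other library reached 36 CPM. For kif15 the log2 ratio was -1.26 ± 0.13 (SE), adjusted p = 2.26e-07, for DMSO against 0 hpa and -0.34 ± 0.13 (SE), adjusted p = 0.0398, with echinomycin, with 0.15 and 0.19 (neither called) for 2ME and IWR-1.

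The microtubule-binding protein encoded by hmmr, a spindle assembly factor, stood out with IWR-1. It was at 113, 110.3 and 113 CPM at 0 hpa, 60.01, 65.6 and 72.2 with DMSO, 79.7, 78.9 and 78.1 with 2ME, 32.1, 54.8 and 43.9 with echinomycin and 48.6, 41.6 and 36.9 with IWR-1. The IWR-1 libraries were as low as those with echinomycin, and the 2ME libraries lay above the DMSO libraries. The log2 ratio was -0.76 ± 0.13 (SE), adjusted p = 8.56e-05, for DMSO against 0 hpa, -0.60 ± 0.13 (SE), adjusted p = 0.00142, with echinomycin, -0.64 ± 0.13 (SE), adjusted p = 0.00114, with IWR-1 and 0.26 ± 0.13 (SE), adjusted p = 0.152, with 2ME. The kinesin gene kif11, whose motor pushes the poles apart, was at 177, 169 and 176 CPM at 0 hpa, 94.01, 106 and 105.4 with DMSO, 53.7, 80.6 and 68.2 with echinomycin and 90.2, 80.7 and 76.3 with IWR-1. The levels ran downward from 0 hpa through DMSO and IWR-1 to echinomycin, except that the last library with IWR-1 lay below the second with echinomycin. Its log2 ratios were -0.78, 0.22 (not called), -0.59 and -0.30, and the IWR-1 call was lost under 6 alternatives (adjusted p up to 0.27).

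Of the others in this class, tpx2, which activates Aurora A at the spindle, had log2 ratios of -0.73 from 0 hpa to DMSO and -0.58 with echinomycin. The chromosome-bound kinesin gene kif4a had -0.76 and -0.45, kif18a, whose motor dampens chromosome movement, -0.84 and -0.87, and kif2c, which takes microtubules apart, -0.34 and -0.79. The kif22 models, for a motor that pushes chromosome arms outward, fell from 0 hpa to DMSO by -0.82 (gene21778) and -1.12 (gene331). With echinomycin gene21778 fell by a log2 ratio of -0.90, and gene331, at 3.42 to 5.02 CPM with DMSO, was at -0.23 (not called).

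The genes of the central spindle and of cytokinesis all fell from 0 hpa to DMSO and all fell with echinomycin, 9 of 9 models each time. With IWR-1 2 fell, and with 2ME 1 rose, neither above the shares of all tested models, 22.4% lower and 14.0% higher. Kif14 is a kinesin of the midbody, and kif14 was at 36.6, 33.7 and 34.99 CPM at 0 hpa, 16.5, 15.5 and 17.1 with DMSO, 22.6, 19.3 and 19.3 with 2ME, 9.06, 14.004 and 10.7 with echinomycin and 17.7, 17.5 and 17.7 with IWR-1. Both 2ME and IWR-1 libraries lay above the DMSO libraries. For kif14 the log2 ratio was -1.100 ± 0.12 (SE), adjusted p = 3.04e-07, for DMSO against 0 hpa, 0.32 ± 0.12 (SE), adjusted p = 0.0452, with 2ME, -0.54 ± 0.12 (SE), adjusted p = 0.00138, with echinomycin and 0.11 ± 0.12 (SE), adjusted p = 0.479, with IWR-1. The rise with 2ME, close to the threshold, was lost when any of 10 single libraries was left out and with the replicate block (adjusted p up to 0.195).

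Ect2, the exchange factor that tells RhoA where to build the contractile ring, was measured by ect2 at 40.3, 38.3 and 45.3 CPM at 0 hpa, 28.9, 30.02 and 28.2 with DMSO, 33.4, 31.5 and 31.9 with 2ME, 13.7, 18.5 and 16.6 with echinomycin and 27.9, 26.7 and 29.2 with IWR-1. The echinomycin libraries lay below all others, IWR-1 overlapped DMSO and 2ME lay above it. In log2 terms ect2 was at -0.51 ± 0.09 (SE), adjusted p = 0.000114, for DMSO against 0 hpa and -0.83 ± 0.09 (SE), adjusted p = 2.18e-06, with echinomycin, with 0.15 and -0.06 (neither called) for 2ME and IWR-1. The microtubule bundler gene prc1 had log2 ratios of -0.94 from 0 hpa to DMSO and -0.60 with echinomycin. In the same order kif20a and kif20b had -0.73 and -0.69, and -0.82 and -0.70. The partners kif23 and racgap1, which form centralspindlin, also fell with IWR-1, by log2 ratios of -0.34 and -0.37, and both calls were lost under 2 alternatives (adjusted p up to 0.133 and 0.0989). The ring scaffold anillin had 2 models, anln gene2056 and gene17356, which fell by -0.74 and -0.59 from 0 hpa to DMSO and by -0.58 and -0.88 with echinomycin.

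Condensin, topoisomerase II and Ki-67 shape the mitotic chromosome, and their 7 tested models all fell from 0 hpa to DMSO and all fell with echinomycin. The condensin ATPase gene smc4 was at 222, 189.6 and 193 CPM at 0 hpa, 133, 146 and 133 with DMSO, 101, 100.3 and 104 with 2ME, 50.1, 74.9 and 70.2 with echinomycin and 104, 103 and 97.2 with IWR-1. All 3 compounds lay below DMSO. For smc4 the log2 ratio was -0.56 ± 0.10 (SE), adjusted p = 0.000179, for DMSO against 0 hpa, -0.43 ± 0.10 (SE), adjusted p = 0.00554, with 2ME, -1.07 ± 0.11 (SE), adjusted p = 5.64e-07, with echinomycin and -0.44 ± 0.10 (SE), adjusted p = 0.00302, with IWR-1. The 2ME call had adjusted p of 0.0407 or less over all 25 alternatives without a fold minimum. Its partner smc2 fell from 0 hpa to DMSO by a log2 ratio of -0.85 and with echinomycin by -0.69, but was at -0.03 and -0.15 (neither called) with 2ME and IWR-1. The other condensin I genes ncapd2, ncapg and ncaph (gene26173) fell with echinomycin by -0.93, -0.71 and -0.98.

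Topoisomerase II alpha untangles the sister chromatids, and top2a was the gene of the list that rose with IWR-1. It was at 152, 157 and 139.6 CPM at 0 hpa, 65.97, 66.4 and 75.6 with DMSO, 89.9, 88.9 and 75.4 with 2ME, 36.8, 61.8 and 61.1 with echinomycin and 98.04, 97.3 and 100.4 with IWR-1. The IWR-1 libraries lay above and the echinomycin libraries below all DMSO libraries. The log2 ratio was -1.11 ± 0.13 (SE), adjusted p = 1.8e-06, for DMSO against 0 hpa, 0.51 ± 0.13 (SE), adjusted p = 0.00597, with IWR-1, 0.29 ± 0.13 (SE), adjusted p = 0.116, with 2ME and -0.38 ± 0.14 (SE), adjusted p = 0.0272, with echinomycin. The fall with echinomycin was lost without the second or the third DMSO library or the first echinomycin library and with 4 other settings (adjusted p up to 0.185), while the rise with IWR-1 had adjusted p of 0.0261 or less under the alternatives without a fold minimum. Ki-67 coats the chromosome surface and is the common marker of cycling cells, and mki67 was at 265, 219.6 and 218 CPM at 0 hpa, 124, 122 and 126 with DMSO, 133, 127 and 118 with 2ME, 61.4, 101 and 93.4 with echinomycin and 130.1, 124 and 125 with IWR-1. Only the first echinomycin library fell under 90 CPM. For mki67 the log2 ratio was -0.92 ± 0.13 (SE), adjusted p = 7.14e-06, for DMSO against 0 hpa, -0.54 ± 0.13 (SE), adjusted p = 0.00197, with echinomycin, 0.02 ± 0.13 (SE), adjusted p = 0.909, with 2ME and 0.03 ± 0.13 (SE), adjusted p = 0.89, with IWR-1.

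Of the genes of mitotic exit, UBE2C and UBE2S are the E2 enzymes that start and extend ubiquitin chains for the anaphase-promoting complex. The gene ube2c was at 73.2, 64.97 and 70.2 CPM at 0 hpa, 60.5, 65.3 and 60.3 with DMSO, 50.8, 48.6 and 51.2 with 2ME, 28.99, 34.4 and 31.6 with echinomycin and 43.6, 36.8 and 36.03 with IWR-1. All 3 compounds lay below DMSO, and DMSO overlapped 0 hpa. In log2 terms ube2c was at -0.16 ± 0.08 (SE), adjusted p = 0.0781, for DMSO against 0 hpa, -0.30 ± 0.08 (SE), adjusted p = 0.00732, with 2ME, -0.97 ± 0.08 (SE), adjusted p = 7.87e-08, with echinomycin and -0.68 ± 0.08 (SE), adjusted p = 5.47e-06, with IWR-1. The 2ME call was lost with scaling by library size alone and with limma on the deposited CPM (adjusted p up to 0.0856, range over the alternatives 0.00318 to 0.0856). The gene ube2s was at 53.2, 45.7 and 46.9 CPM at 0 hpa, 53.7, 58.03 and 54.1 with DMSO, 45.8, 51.4 and 51.2 with 2ME, 33.8, 33.3 and 31.1 with echinomycin and 39.2, 36.3 and 35.4 with IWR-1. The lowest DMSO library exceeded the highest 0 hpa library by less than 1 CPM, and IWR-1 and echinomycin lay below all other groups. For ube2s the log2 ratio was 0.19 ± 0.07 (SE), adjusted p = 0.0312, for DMSO against 0 hpa, -0.16 ± 0.07 (SE), adjusted p = 0.0995, with 2ME, -0.75 ± 0.07 (SE), adjusted p = 4.01e-07, with echinomycin and -0.58 ± 0.07 (SE), adjusted p = 1.02e-05, with IWR-1.

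RNA for Cdc20, the activator that the checkpoint holds back, and for separase, which cuts cohesin, fell from 0 hpa to DMSO. The gene cdc20 had log2 ratios of -0.53, 0.03 (not called), -0.84 and -0.41 for DMSO against 0 hpa, 2ME, echinomycin and IWR-1, the last lost under 3 alternatives (adjusted p up to 0.104). The separase gene espl1 was at 24.2, 24.6 and 21.9 CPM at 0 hpa, 12.3, 15.4 and 13.7 with DMSO, 18.5, 15.5 and 14.4 with 2ME, 8.14, 13.2 and 9.68 with echinomycin and 12.4, 13.8 and 13.5 with IWR-1. Its 0 hpa libraries were clear of the rest, and echinomycin overlapped DMSO through its second library. The log2 ratio was -0.77 ± 0.14 (SE), adjusted p = 0.000154, for DMSO against 0 hpa and -0.42 ± 0.15 (SE), adjusted p = 0.0258, with echinomycin.

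Role by role, the medians ran as follows. From 0 hpa to DMSO the medians were lowest for the spindle genes at -0.78 and cytokinesis at -0.73, and highest for outer kinetochore, centromere and exit at -0.34, -0.35 and -0.35. With echinomycin they were lowest for the passenger complex at -1.06, entry and kinases at -0.91 each and outer kinetochore at -0.81, and highest for the checkpoint at -0.58 and spindle at -0.59. With IWR-1 the passenger complex, exit, entry and outer kinetochore had medians of -0.52, -0.50, -0.47 and -0.42, while checkpoint, cytokinesis and spindle had -0.02, -0.06 and -0.12. With 2ME the role medians lay between -0.21 and 0.19. These are descriptions, and the difference between roles was not tested.

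Model length moved with these differences. Among members under 2000 bases (17 models), 2000 to under 4000 bases (22) and 4000 bases or more (20), the median log2 ratio from 0 hpa to DMSO was -0.38, -0.52 and -0.83, while for all tested models of those lengths it was 0.12, 0.01 and -0.16. With IWR-1 the members had -0.47, -0.23 and -0.02 and all models -0.14, -0.01 and 0.12. With echinomycin the members had -0.90, -0.74 and -0.58 and all models -0.09, 0.04 and 0.12. With 2ME they were -0.16, 0.0041 and 0.20 beside -0.11, -0.0045 and 0.06. Long models thus sat lower than short ones from 0 hpa to DMSO and higher with each compound against DMSO, in the members and in all models alike. The genes that rose with 2ME or IWR-1 include long ones such as cenpe, kif14, ttk and top2a, but also cdc25b at 2386 bases and the kif22 model gene331, which rose most with 2ME and at 569 bases is the shortest tested member. The part of length in the order of the roles was not tested. With an offset of effective length in the fit the counts lower and higher were 51 and 1 from 0 hpa to DMSO, 55 and 1 with echinomycin, 23 and 1 with IWR-1 and 5 and 5 with 2ME. That offset was scaled within each model and held only differences in effective length between libraries. It therefore could not remove a trend with model length.

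**Figure D4:**
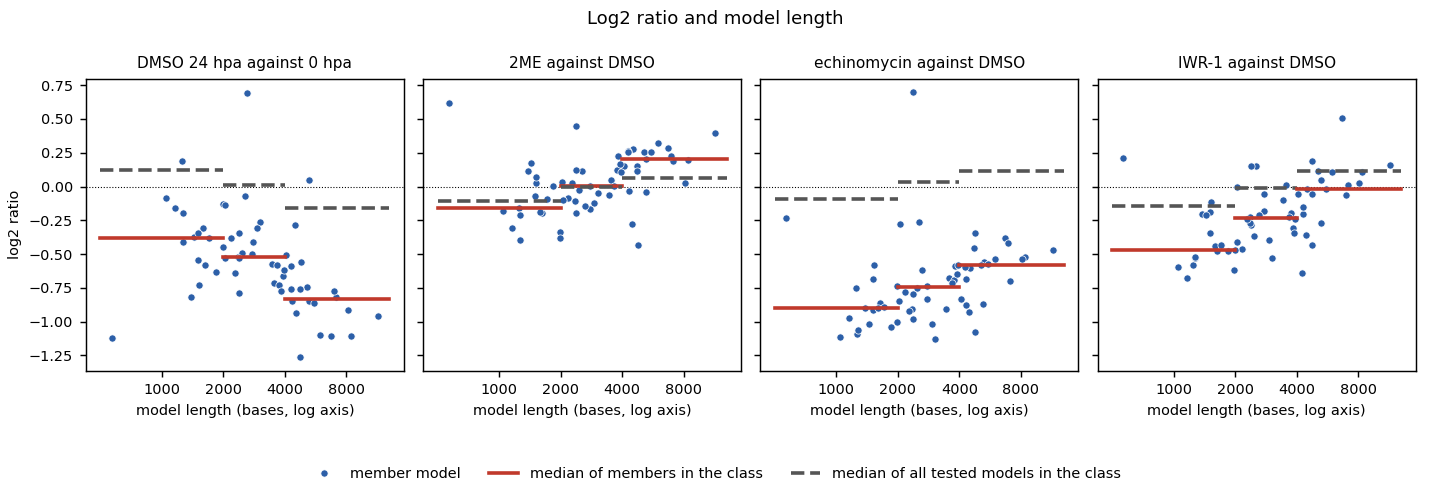
Each point is 1 tested member, with model length in bases on a log axis and the log2 ratio on the other axis, in 4 comparisons; solid red lines give the members' median in 3 length classes and dashed grey lines that of all tested models. With echinomycin the red line lies below the grey in each class, while with IWR-1 it comes close to 0 (-0.02) among the longest.

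Other genes of the cell cycle, from lists that share no symbol with the members, were counted beside all tested models. Of all tested models 30.8% fell and 32.2% rose from 0 hpa to DMSO, 16.5% and 14.0% with 2ME, 27.0% and 24.6% with echinomycin and 22.4% and 19.9% with IWR-1. Of 25 tested models for other centromere and kinetochore proteins, 24 fell with echinomycin, 15 fell and 1 rose from 0 hpa to DMSO, 5 fell with IWR-1 and 2 fell with 2ME, and the last 2 shares were not above those of all models. The microtubule receptor scaffold knl1 and the centromere anchor cenpc had log2 ratios of -1.15 ± 0.12 (SE) and -1.39 ± 0.18 from 0 hpa to DMSO, and the checkpoint gene mad1l1 fell by a log2 ratio of -1.65 ± 0.12 with echinomycin. Of 24 other spindle and centrosome models, 18 fell and 1 rose from 0 hpa to DMSO, 19 fell and 1 rose with echinomycin, 7 fell with IWR-1 and 2 rose with 2ME. The midbody gene cep55 fell by a log2 ratio of -1.104 ± 0.13 with echinomycin, and ckap2, for a spindle protein, was at 0.29 with 2ME and -0.48 with IWR-1.

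Genes of chromosome structure outside the list moved in part. Of 7 models for condensin II and other chromosome proteins all 7 fell with echinomycin, 3 fell with IWR-1, 3 fell with 2ME, and 4 fell and 2 rose from 0 hpa to DMSO. The histone variant gene h2az1 and hmgb2, for a chromatin protein of proliferating cells, fell with echinomycin by log2 ratios of -0.97 ± 0.08 (SE) and -0.90 ± 0.08. Of 15 models for cohesin and its regulators 10 fell and 2 rose from 0 hpa to DMSO, 8 fell with echinomycin, 1 fell and 3 rose with IWR-1 and 1 rose with 2ME. The regulator that rose with 2ME was cdca5 (sororin), which protects cohesin, at 0.43, and with IWR-1 it was at 0.40. Of 15 models for subunits of the anaphase-promoting complex and its regulators fzr1 and fbxo5, 3 fell and 6 rose from 0 hpa to DMSO. With echinomycin 7 fell and 1 rose, with IWR-1 5 fell and with 2ME 2 fell and 1 rose. The gene fbxo5, for the inhibitor Emi1 and counted here, fell by a log2 ratio of -1.33 ± 0.16 from 0 hpa to DMSO and -0.85 ± 0.18 with echinomycin.

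Genes that act before mitosis were counted as well. Of 23 tested S phase models, for origin licensing and the replication fork, 14 fell and 1 rose with 2ME, 21 fell and 1 rose with echinomycin, 8 fell with IWR-1, and 13 fell and 1 rose from 0 hpa to DMSO. With 2ME gins1 and orc6 fell by log2 ratios of -0.66 ± 0.12 (SE) and -0.65 ± 0.09, and with echinomycin gins3 and tyms fell by -1.56 ± 0.13 and -1.54 ± 0.18. The S phase model that rose with both was mcm3, at 0.408 CPM with DMSO and 1.39 CPM with 2ME, a low level for this list. Of 15 MuvB, B-Myb and E2F models 12 fell with echinomycin, 7 fell and 1 rose from 0 hpa to DMSO, 2 fell and 1 rose with IWR-1, and 3 fell and 3 rose with 2ME. From 0 hpa to DMSO e2f1, for an activator of S phase genes, fell by a log2 ratio of -1.72 ± 0.17, and rbbp4, for a MuvB and chromatin subunit, fell by -1.04 ± 0.07 with echinomycin.

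Genes that brake the cycle were counted last with those of G1. Of 11 tested models for brakes 2 fell and 4 rose from 0 hpa to DMSO, or 18.2% and 36.4%, near the shares of all models, 5 fell and 4 rose with echinomycin, 2 fell and 3 rose with 2ME, and 3 fell and 1 rose with IWR-1. The gene cdkn1a, for the Cdk inhibitor p21, rose from 0 hpa to DMSO by a log2 ratio of 0.98 ± 0.12 (SE, edgeR, adjusted p = 1.81e-06). It rose by 0.77 ± 0.11 (adjusted p = 9.72e-05) with 2ME and by 1.06 ± 0.11 (adjusted p = 9.03e-07) with echinomycin. The stress gene gadd45g (gene26127) rose by 2.60 ± 0.09 from 0 hpa to DMSO and had log2 ratios of -0.59 ± 0.08 with 2ME and -1.22 ± 0.08 with IWR-1, both called lower. The kinase gene pkmyt1, whose product inhibits Cdk1, fell with 2ME, echinomycin and IWR-1 by -0.57, -0.52 and -0.33. Of 6 tested models for G1 cyclins, their kinases and Myc, 4 rose and 1 fell with echinomycin, where ccnd2 rose by 0.70 ± 0.12. Of these 2 fell and 2 rose from 0 hpa to DMSO and with IWR-1, and 1 fell and 1 rose with 2ME, and the shares of 33.3% each from 0 hpa to DMSO and 16.7% each with 2ME were near those of all models. The kinase gene cdk6 fell with IWR-1 by a log2 ratio of -1.28 ± 0.09.

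**Figure D5:**
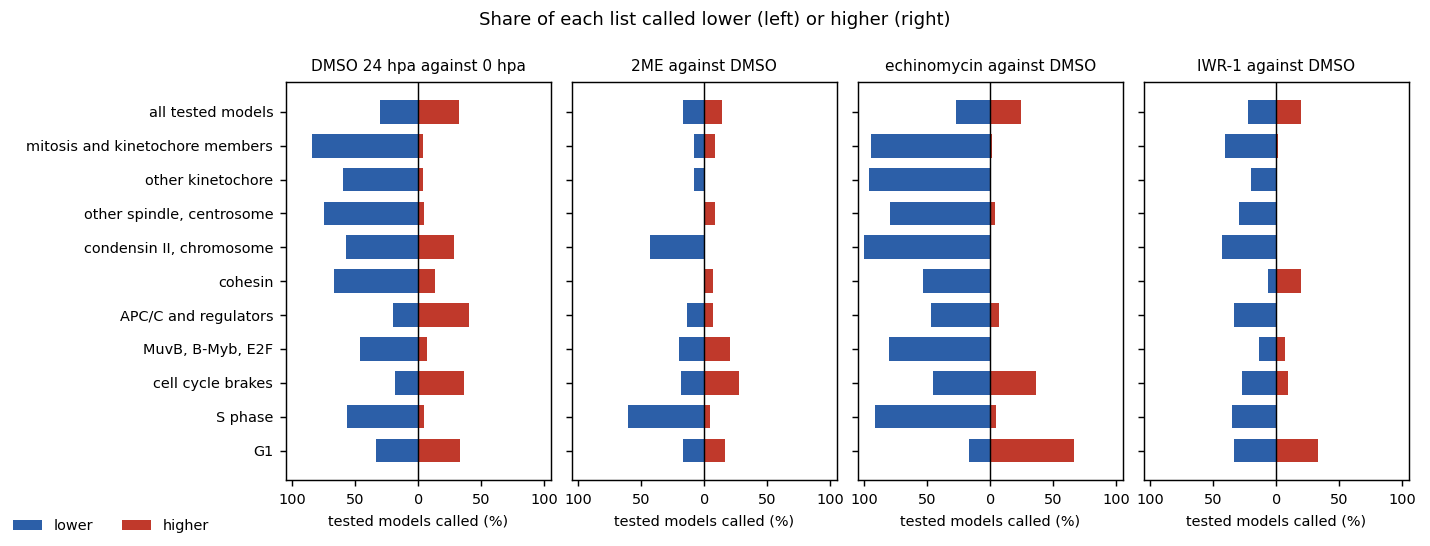
Bars give the percentage of tested models of each list called lower (blue, to the left) or higher (red, to the right) in 4 comparisons, with all tested models in the top row. With echinomycin the mitosis members (56 of 59), other kinetochore genes (24 of 25) and S phase genes (21 of 23) are mostly lower, while with 2ME the S phase list (14 of 23) has the longest bar to the left.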

How the data were processed

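RNA-seq of 15 samples, 3 in each of 5 groups taken from the sample titles, was used. The 3 IWR samples bear treatment labels numbered like their replicates, and the compound was read as IWR-1 in each because the series' design text gives no other. The submitters' processing notes name Trim Galore 0.6.5 for trimming, kallisto and edgeR as the authors' tools. Versions of kallisto and of the authors' edgeR were not given in the sources used here. Gene model identifiers carry the tag XT-9_1, per the file headers, and no other statement of a build was found in them. Per the file headers, the deposited values include estimated counts for each gene model, of which 21.4% lay over 1e-06 from a whole number, so they were rounded. The deposited TPM divide them by effective length, per the file headers, and were used only to set levels of different genes side by side. The authors' deposited CPM table of 15892 models, which holds 59 of the 62 members, entered 1 alternative.

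Counts were filtered with filterByExpr (minimum count 10, total 15), which left 18823 models, and fitted with edgeR 4.0.16 in R 4.3.3, with TMM factors and the quasi-likelihood F test, 1 coefficient per group and 10 residual degrees of freedom (common biological coefficient of variation 0.0936). Benjamini-Hochberg adjustment was made within each of 7 comparisons, with a threshold of 0.05. Standard errors come from the F statistic. The code was tested on simulated data. Depth was 17297773 to 23377789 counts per library, and intervals between libraries cover the spread of these samples only. Alternatives were RLE, upper-quartile and library size scaling, DESeq2 1.42.0, limma 3.58.1 on the deposited CPM, other filters, only the groups compared, a replicate block, an offset of effective length, a 2-fold minimum and leaving out each library. Length classes and the medians without 1 echinomycin library were chosen after seeing the data. A script in Python 3.11.15 (pandas 2.3.3, numpy 2.4.6, matplotlib 3.10.9) made the tables and figures.

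The members and all gene lists were chosen with earlier results of these data known. Values were given for up to 3 called members of each role with the smallest adjusted p in each comparison with 0 hpa or DMSO, always for cdk1, ccnb1, plk1, top2a, mki67 and foxm1, for the 5 with the smallest adjusted p between compounds, and for up to 3 genes of each other list with the largest log2 ratio. Values in every library were given for a part of these, and a few further members were named by their log2 ratio. Of 152 symbols in the other cell cycle lists 141 were found, 2 through synonyms in a RefSeq gene table for UCB_Xtro_10.0, and of 68 marker symbols 67, with 4 through synonyms. No genome sequence was used here.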

Additional observations from a re-analysis of the deposited data

How the results depend on the processing

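When single libraries were left out, 52 to 57 members were lower and 1 higher with echinomycin each time. From 0 hpa to DMSO the ranges were 43 to 52 lower and 1 to 2 higher, with 2ME 2 to 6 lower and 0 to 12 higher, and with IWR-1 18 to 28 lower and 1 to 3 higher. Between compounds they were 0 to 1 lower and 56 to 57 higher for 2ME against echinomycin, 0 to 1 lower and 10 to 29 higher for 2ME against IWR-1, and 41 to 54 lower and 1 higher for echinomycin against IWR-1. With a 2-fold minimum in edgeR, 5 lower and 0 higher were left from 0 hpa to DMSO, 9 lower and 0 higher with echinomycin, 7 higher for 2ME against echinomycin, and 0 in the others, by the construction of that minimum. From 0 hpa to DMSO, 1 model was higher with RLE or upper-quartile scaling, DESeq2, only the groups compared or the length offset. With scaling by library size alone and with limma on the deposited CPM, 2ME had 1 lower and 16 higher each time, and IWR-1 12 lower and 2 higher. With only the groups compared, 13 were higher with 2ME, 3 higher with IWR-1, 1 lower for 2ME against echinomycin, and 1 lower and 28 higher for 2ME against IWR-1. Under library size scaling the median of all models moved by over 0.1, while the members' median minus that of all stayed at 0.05, -0.75 and -0.20 for 2ME, echinomycin and IWR-1. The cause of the other shifts was not tested.

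Signs turned for values that were not called. With 2ME, library size scaling and limma gave 0.0311 and 0.0298 for plk1 and 0.0759 and 0.0734 for foxm1, and with IWR-1 0.0619 and 0.0563 for foxm1. For mki67 with 2ME the values without single libraries ranged from -0.0162, without the first 2ME library, to 0.0697. Of the single-gene values, 2904 kept direction and side of the threshold, 218 lost the call, 9 gained one and 7 turned sign. This tally includes the 2-fold minimum, under which every called value below 2-fold counts as lost by construction. Of 30 correlations of same-numbered samples' deviations 4 were over 0.1 (range -0.20 to 0.15). Differently numbered samples were not correlated for comparison, so these values cannot decide whether the replicate numbers pair samples. The replicate block gave 49 lower and 2 higher from 0 hpa to DMSO, 5 lower and 3 higher with 2ME, 56 and 1 with echinomycin and 23 and 1 with IWR-1. A search of promoters for motifs was planned and not run, since no promoter sequence was used here. Low counts limit the kif22 model gene331, at 52 to 167 counts per library, and the 3 untested models.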

Other observations

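Relatives of the members outside the rule, named after their values were seen, moved in part with them. The phosphatase gene cdc25a, an activator of Cdk2 and Cdk1, had a log2 ratio of -0.75 ± 0.17 (SE, edgeR, adjusted p = 0.00102) from 0 hpa to DMSO and -0.65 ± 0.18 (adjusted p = 0.00622) with echinomycin, where its relative cdc25b rose. With 2ME and IWR-1 it was at -0.24 ± 0.18 and -0.14 ± 0.17, neither called. The cyclin gene ccna1 had a log2 ratio of -2.35 ± 0.71 (SE, edgeR, adjusted p = 0.00835) from 0 hpa to DMSO. It was at 1.22 ± 0.281 CPM (SD, n = 3) at 0 hpa and 0.246 ± 0.228 CPM with DMSO. The DMSO libraries were at 0.450, 0.289 and 0 CPM, so this ratio rests on few reads.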
